A study of Mus musculus with 6 samples.

Results

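The heat shock protein and DnaJ chaperone genes were examined in retinas of NMDA-injured mice given either PBS or stem cell factor (SCF). Members were chosen by symbol, with earlier results of these data known. The rule took names beginning with Hspa, Hspb, Hspd, Hspe or Hsph and a number, with Hsp90, or with Dnaja, Dnajb or Dnajc and a number. The rule found 79 genes in the files, 70 of them named as genes and 9 as pseudogenes, and 73 of the 79 are among the 25202 genes that were tested. The mice were wild-type C57BL/6 animals at 5 postnatal weeks, and every mouse of both groups had received an intravitreal injection of NMDA, a glutamate analog that kills retinal ganglion cells. After 2 days the SCF group received recombinant SCF in the eye, the ligand of the receptor c-kit, and the control group received PBS. Retinas were taken 1 week later and sequenced as 3 NMDA + PBS and 3 NMDA + SCF libraries, with no uninjured retina among them, and the labels do not say how many mice entered a library. The p-values therefore measure the spread between these libraries, which may be technical.

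Heat shock proteins are molecular chaperones, which hold other proteins while they fold and keep damaged ones from clumping. The Hspa (Hsp70) proteins bind exposed stretches of a client in a cycle driven by ATP. The Dnaja, Dnajb and Dnajc proteins (Hsp40) bring clients to Hsp70 and start its ATP hydrolysis, and Hsph1 and the Hspa4 group exchange the spent nucleotide. Hsp90 finishes the folding of kinases and steroid receptors, Hspd1 with its lid Hspe1 forms the folding chamber of mitochondria, and the small Hspb proteins hold clients without ATP. In the cytosol, stress frees the factor HSF1, which binds repeats of the unit GAA in alternating orientation, the heat shock element. In the retina, neurons depend on these systems to fold and recycle visual and synaptic proteins.

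The heat shock element was looked for in the promoters of the members, because it is the sequence through which a heat shock response would act. RefSeq promoter windows (GRCm38.p6, 250 bases before to 50 after a start site) were matched by symbol for 57 members, in 74 windows. The element was searched as GAANNTTC, which reads the same on both strands, and in a longer form in which GAANNTTC is followed by NNGAA or the reverse complement of that form stands. GAANNTTC stood in 20.3% of the members' windows and in 7.86% of all 32851 windows, and the longer form in 8.11% and 0.603%. Windows of a gene can overlap, as in Dnajb6 and Hsph1, so a match can count more than once. By gene, GAANNTTC stood in 13 of 57 members and in 2442 of 27025 genes, and the longer form in 4 and 179. No window was matched for Hsp90ab1, Hsp90aa1 or Hspa8, among others, so these were not searched. The 30 bases around the first match are shown for the members that the results turn on, with the match in capitals and the strand of the gene given.
Hspd1 (chr1:55088053-55088082, minus strand): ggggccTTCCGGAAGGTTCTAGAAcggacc
Hspe1 (chr1:55088053-55088082, plus strand): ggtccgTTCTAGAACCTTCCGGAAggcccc
Dnajb6 (chr5:29735844-29735873, plus strand): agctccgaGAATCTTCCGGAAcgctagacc
Hsph1 (chr5:149636279-149636308, minus strand): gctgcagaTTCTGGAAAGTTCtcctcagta
Hspa1a (chr17:34972242-34972271, minus strand): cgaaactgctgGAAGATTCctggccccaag
Hspa1b (chr17:34959324-34959353, minus strand): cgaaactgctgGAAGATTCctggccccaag
Hspb6 (chr7:30553170-30553199, plus strand): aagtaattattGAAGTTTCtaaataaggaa
Hspb1 (chr5:135887791-135887820, plus strand): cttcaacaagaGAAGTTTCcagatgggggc

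Hspd1 and Hspe1 are transcribed away from each other, and 1 run of 18 bases in the 215 bases between their RefSeq starts serves as the match for both. A second RefSeq window of Hspd1 (chr1:55088194-55088493), beyond the start of Hspe1, held no match, and exons of Hspd1 and Hspe1 overlap on opposite strands. The stretches of Hspa1a and Hspa1b are the same letter for letter, and in both the match begins 104 bases before the start. The longer form was found in 4 members, Hspd1, Hspe1, Dnajb6 and Hsph1. In Hsph1 the match begins 15 bases after a start site, not before it. Both windows of Dnajb1 held no match, which says only that these letters are not there. A match describes letters, and neither binding nor activity of HSF1 was measured.

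The libraries held between 44925938 and 48783182 clean reads, and the values are FPKM (fragments scaled to transcript length and sequencing depth) given for each transcript. The 6 libraries came in 2 transcript lists: NMDA + PBS 1 and all NMDA + SCF libraries shared list A, whereas NMDA + PBS 2 and 3 shared list B. For this reason each gene was summed over the transcripts present in all 6 files, which kept between 93.4% and 99.5% of the members' FPKM. The list and part of the control group cannot be told apart, so for many members the difference is given also against NMDA + PBS 1 alone, the control on the list of the SCF libraries. All 14 rod marker genes were above 0, with sums between 6609 and 9121 FPKM in a library. In such bulk retinas, fewer cells of a type and less RNA per cell cannot be told apart.

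Of the 79 members, 74 had a transcript in all 6 files and 73 were above 0 in at least 1 library, of which 69 had more than 3 fragments in a library. Hspe1-ps6 was listed at 0 throughout. The 5 members with no common transcript were Hspa2, Dnajc18, Dnajc27, Dnajc28 and Dnajc30. Dnajc18 was listed in list B alone, at 87.6 FPKM in NMDA + PBS 2 and 101 in NMDA + PBS 3, and was therefore not compared. The others stayed at or below 2.03 FPKM in every library.

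Hsp90ab1, the constitutive cytosolic Hsp90 (chr17:45567775-45573271 on GRCm38), had the highest listed level of the members. Its level was 337, 253 and 182 FPKM in NMDA + PBS 1, 2 and 3 and 340, 349 and 427 FPKM in NMDA + SCF 1, 2 and 3. The groups did not overlap, but NMDA + PBS 1 lay next to the lowest SCF library, and against it alone the log2 difference was 0.13. The next levels belonged to Dnaja2, a cytosolic Hsp40 that loads Hsp70 (198 ± 23.5 FPKM in NMDA + PBS and 215 ± 3.62 in NMDA + SCF, mean ± SD, n = 3), to Hspd1 and to Hspa9, the mitochondrial Hsp70 (187 ± 21.9 and 208 ± 11.4 FPKM). These 4 members of highest listed level serve the cytosol and the mitochondrion in pairs. The ranking is of listed values only, since Hspa8, the constitutive cytosolic Hsp70, was listed between 0.916 and 5.28 FPKM. The spread of Dnaja2 and Hspa9 between libraries was larger than the distance between their group means.

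**Figure D1:**
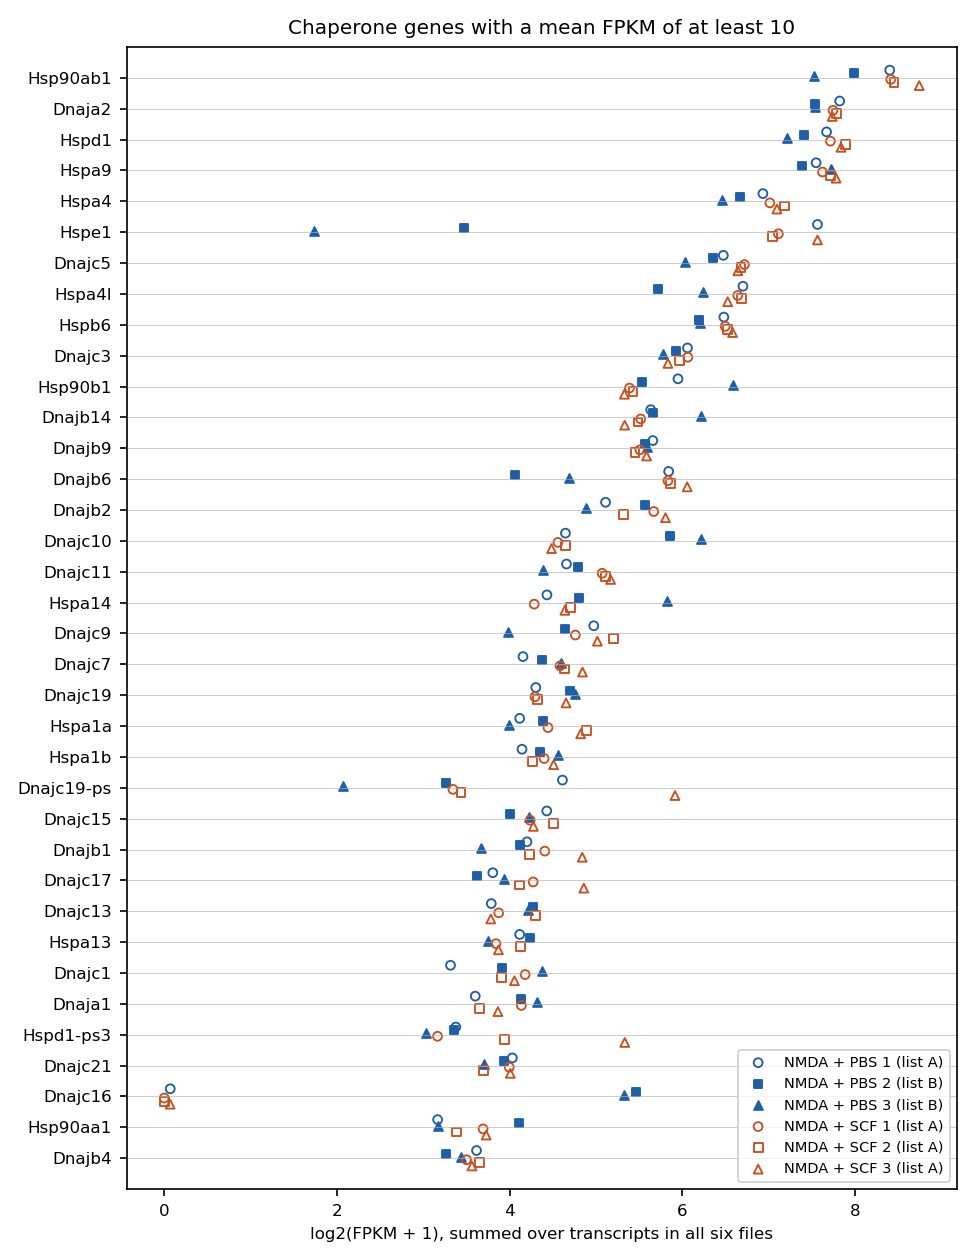
Level of each of the 36 chaperone genes with a mean FPKM of at least 10, as log2(FPKM + 1), 1 point per library. Open symbols are libraries of transcript list A and filled symbols those of list B. Hsp90ab1 stands highest, and Hspe1, Dnajb6, Dnajc10 and Dnajc16 show the filled symbols apart from all others.

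The level of a family rested on few members. Hsp90ab1 gave 82.9% of the Hsp90 sum, Dnaja2 92.4% of the Dnaja sum and Hspb6 85.8% of the small heat shock sum, whereas the leading member of Hspa, Hspa9, gave 39.4% and that of Dnajc, Dnajc5, 21.7%. The Hspa family held 22.8% of all member FPKM, Dnajc 18.8% and Hsp90 17.3%. The small heat shock genes held 4.49%, and all these shares rest on the values as listed.

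Family sums were compared as values, with no test and no scaling to the FPKM total of a library. The Hspa sum was 492, 421 and 494 FPKM in NMDA + PBS 1 to 3 and 505, 552 and 548 FPKM in NMDA + SCF 1 to 3. The Hspb sum was 100.2, 88.3 and 85.6 FPKM against 103, 106 and 108 FPKM. In both families the SCF libraries lay above every control library, and NMDA + PBS 1 differed from the lowest SCF library by less than the controls differed among themselves. The Dnajc sum overlapped between the groups, at 413 ± 42.0 FPKM in NMDA + PBS and 414 ± 4.86 FPKM in NMDA + SCF (SD, n = 3). It holds Dnajc10 and Dnajc16, which were higher in NMDA + PBS 2 and 3 than in every other library. Dnajc10 was at 57.1 and 73.1 FPKM there and Dnajc16 at 43.2 and 38.9 FPKM, and a sum without them was not formed. The Hsp90 sum overlapped too, from 285 to 406 FPKM in the controls and from 393 to 479 FPKM with SCF. All members together held 0.554, 0.549 and 0.598% of the FPKM of the common transcripts in NMDA + PBS 1 to 3. In NMDA + SCF 1 to 3 they held 0.617, 0.643 and 0.662%. By this share NMDA + PBS 3, not NMDA + PBS 1, was the control nearest to the SCF libraries. Shares of single families were not formed.

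**Figure D2:**
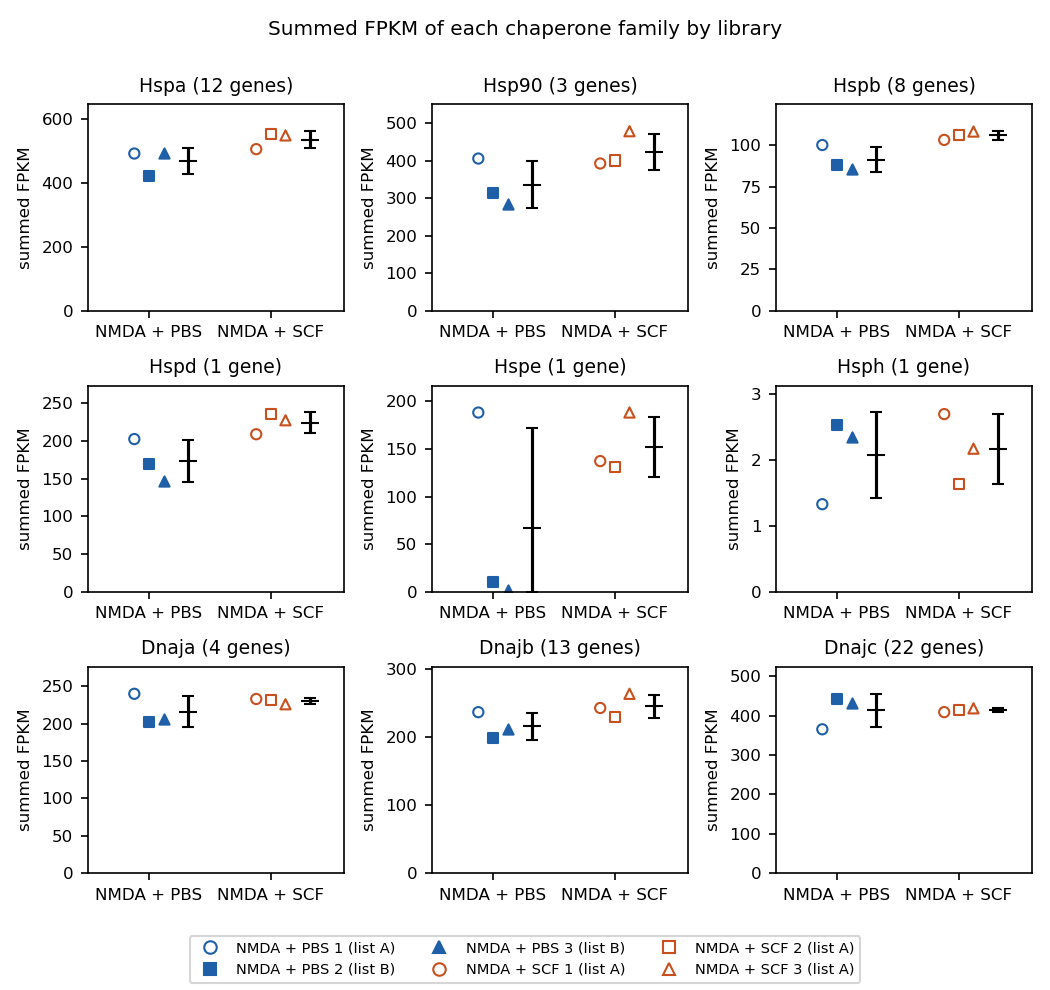
Summed FPKM of the tested members of each chaperone family in each library, with the mean and SD of each group of 3 libraries as a black bar (the lower bar of Hspe is drawn to 0). The Hspa, Hspb and Hspd sums of the SCF libraries lie above all controls, and the Hspe sum of NMDA + PBS 1 lies with the SCF libraries while those of NMDA + PBS 2 and 3 lie near 0.

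No member was called when the groups were compared gene by gene. With limma on log2(FPKM + 1), 0 of the 73 members and 0 of 25202 genes (0.00%) reached an adjusted p of 0.05 (Benjamini-Hochberg). At an unadjusted p of at most 0.05, 5 members were higher with SCF, against 4.33% of all genes, and 5 were lower, against 4.90%. The smallest adjusted p of any member was 0.536. The median difference over the members was 0.049 on the log2 scale and over all genes -0.0058, with 43 members higher and 30 lower. Without NMDA + PBS 1 the median was 0.00075 over the members and -0.037 over all genes, and without NMDA + PBS 2 it was 0.085 and 0.020. Under median of ratios scaling it was 0.0045 and -0.036, and under upper quartile scaling 0.013 and -0.032.

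The libraries were also compared by their order. Against NMDA + PBS 1 alone, all SCF libraries were higher in 24 members, lower in 16 and mixed in 33. The share over all genes was not counted, so these counts are not read as a result about the members. In 12 members every NMDA + SCF library lay above every NMDA + PBS library, against 7.63% of all genes, and in 3 members every one lay below, against 6.45%. The share depended on abundance: among the 4508 genes with a mean of at least 10 FPKM, 20.7% had the SCF libraries on top and 4.19% below, and among the 36 members at that level 9 had them on top and 3 below. Abundant genes as a whole lay higher with SCF, and the chaperones among them did so by a like amount. Over the 11 members of at least 50 FPKM the median log2 difference was 0.38, and over the 1120 genes at that level it was 0.35. Against NMDA + PBS 1 alone, the medians were 0.053 and 0.047.

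**Figure D3:**
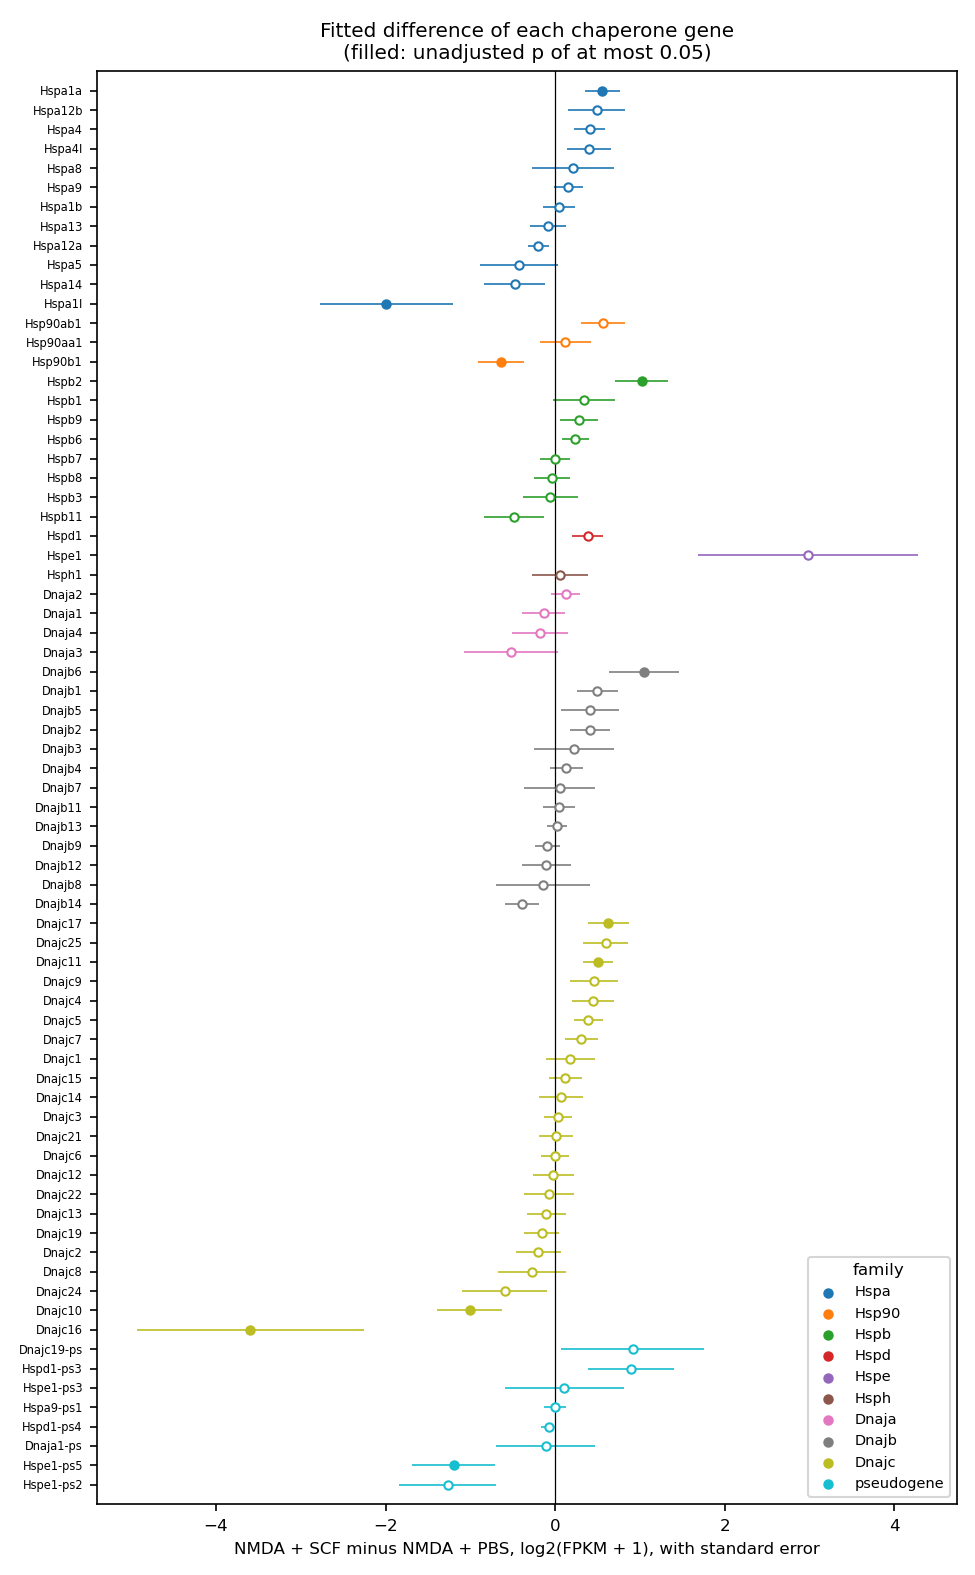
Fitted difference between NMDA + SCF and NMDA + PBS for each of the 73 tested members, on the log2(FPKM + 1) scale with its standard error, ordered by family. Filled points are the 10 members with an unadjusted p of at most 0.05, and none had an adjusted p under 0.536.

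Among the Hsp70 genes, the stress-inducible pair was measured separately. Hspa1a (chr17:34969190-34972156) was at 16.3, 19.9 and 14.9 FPKM in NMDA + PBS and at 20.8, 28.7 and 27.3 FPKM in NMDA + SCF. The groups did not overlap, and the log2 difference was 0.56 ± 0.21 (SE), with an unadjusted limma p of 0.0303 and an adjusted p of 0.536, and 0.60 against NMDA + PBS 1 alone. Hspa1b (chr17:34956436-34959238) was at 16.7, 19.4 and 22.5 FPKM and at 20.1, 18.2 and 21.8 FPKM, with overlapping groups and a log2 difference of 0.043 ± 0.19, or 0.25 against NMDA + PBS 1 alone. Their coding sequences share 99.5% of bases, and 7 positions differ, so the division of fragments between both genes is uncertain. Whether the difference of Hspa1a and that of Hspa1b differ was not tested.

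Other members known to be induced through HSF1 were described one by one. Dnajb1, the Hsp40 partner of Hspa1a, was at 17.4, 16.3 and 11.7 FPKM in NMDA + PBS and 20.2, 17.8 and 27.6 FPKM in NMDA + SCF. Its groups did not overlap, with NMDA + PBS 1 and NMDA + SCF 2 next to each other, and its log2 difference was 0.50 ± 0.24 (adjusted p = 0.545, limma), or 0.29 against NMDA + PBS 1 alone. Hsph1, the nucleotide exchange factor Hsp110, overlapped between groups at 2.07 ± 0.649 and 2.17 ± 0.531 FPKM, and only 7.67% of its level came from coding transcripts. Hspb1, the small heat shock protein that caps actin, was listed at 0 in 4 libraries, at 0.278 FPKM in NMDA + PBS 2 and at 1.59 FPKM in NMDA + SCF 2, where it rested on 5 fragments.

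Low levels need care in these files. Hspa8, the constitutive cytosolic Hsp70, was between 0.916 and 5.28 FPKM, and 2.44% of that came from its coding transcript. Gapdh, an enzyme of glycolysis that every cell uses, was likewise listed at 0 in NMDA + PBS 2 and NMDA + SCF 3 and at or below 1.83 FPKM elsewhere. A low or absent value is therefore reported as listed, not as a low level of the RNA. In 15 of the 65 tested members that are not pseudogenes, less than 50% of the level came from coding transcripts.

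Hspa4 and Hspa4l, exchange factors of the Hsp70 cycle, were abundant. Hspa4 stood at 121, 101 and 86.7 FPKM in NMDA + PBS and at 128, 144 and 136 FPKM in NMDA + SCF (log2 difference 0.41 ± 0.18, adjusted p = 0.536, limma). Every SCF library was above every control, and against NMDA + PBS 1 alone the log2 difference was 0.16. Hspa4l was at 103, 51.6 and 74.7 FPKM and at 98.8, 102 and 91.0 FPKM, so that NMDA + PBS 1 was the highest of all 6 libraries. Hsp90aa1, the inducible Hsp90 that works with them, overlapped at 10.7 ± 4.76 and 11.2 ± 1.54 FPKM.

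Of the chaperones of the endoplasmic reticulum, Hsp90b1 (Grp94, chr10:86690209-86705509) had its lowest values with SCF. It was at 60.8, 45.4 and 95.0 FPKM in NMDA + PBS and at 40.8, 42.1 and 39.2 FPKM in NMDA + SCF. No libraries overlapped, the controls spread over more than the distance to the SCF group, and the log2 difference was -0.64 ± 0.27 with an unadjusted limma p of 0.0473 and an adjusted p of 0.536, and -0.57 against NMDA + PBS 1 alone. Its exons overlap those of Gm15344 on the same strand. Hspa5 (BiP), the Hsp70 of this compartment, overlapped at 6.65 ± 0.26 and 5.62 ± 4.62 FPKM, of which 28.0% came from its coding transcript. Dnajb9 was even across the 6 libraries, from 42.7 to 49.5 FPKM, and Dnajc3, which holds back the kinase PERK, ranged from 53.8 to 65.9 FPKM. Dnajb11 was at or below 0.571 FPKM over the common transcript, and its other coding transcript in list B stood at 1.83 and 12.97 FPKM, so that with all listed transcripts its log2 difference turned to -1.48.

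Among the mitochondrial members, Hspd1 (Hsp60, chr1:55077835-55088243) was at 203, 169 and 147 FPKM in NMDA + PBS and at 209, 236 and 228 FPKM in NMDA + SCF. The SCF libraries were all above the controls, with a log2 difference of 0.38 ± 0.19 (adjusted p = 0.545, limma) and of 0.14 against NMDA + PBS 1 alone. Its partner Hspe1 (Hsp10, chr1:55088132-55091307), which shares with it the promoter region shown above, was at 188, 10.1 and 2.33 FPKM and at 137, 131 and 188 FPKM. NMDA + PBS 1 and NMDA + SCF 3 were level at the top, and the other 2 controls stood far below. The fitted log2 difference of 2.98 ± 1.29 was -0.32 against NMDA + PBS 1 alone. Dnajc11, a protein of the mitochondrial outer membrane that helps to shape cristae (chr4:151933691-151982137), was at 24.2, 26.7 and 19.9 FPKM and at 32.6, 33.4 and 35.0 FPKM. Its SCF libraries were close together and above all controls, and the log2 difference was 0.50 ± 0.18 with an unadjusted limma p of 0.0238 and an adjusted p of 0.536. It was 0.46 against NMDA + PBS 1 alone.

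The small heat shock genes were led by Hspb6 (Hsp20, chr7:30552178-30555443), known from muscle. It was at 88.3, 72.2 and 72.8 FPKM in NMDA + PBS and at 89.2, 90.9 and 94.7 FPKM in NMDA + SCF. The groups did not overlap, NMDA + PBS 1 was within 1 FPKM of NMDA + SCF 1, and the log2 difference was 0.24 ± 0.16 (adjusted p = 0.645, limma). Its exons overlap those of Lin37 and Proser3 on the other strand and Gm38670 on the same strand. Hspb8, a partner of the co-chaperone Bag3, was at 9.82 ± 1.81 and 9.51 ± 0.80 FPKM (SD, n = 3). Hspb3 was at 2.09 ± 0.52 and 1.98 ± 0.58 FPKM and Hspb11, a subunit of the transport machinery of cilia, at 1.25 ± 0.77 and 0.55 ± 0.29 FPKM. Hspb7 was at or below 0.519 FPKM in every library, and Hspb9 was listed at 0 in all but NMDA + SCF 2.

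Hspb2 (chr9:50751078-50752354) had the smallest unadjusted p of any member, 0.0121, with an adjusted limma p of 0.536. It rested on 0, 0 and 1 fragments in NMDA + PBS and on 4, 1 and 3 fragments in NMDA + SCF, or 0, 0 and 0.291 FPKM against 2.11, 0.521 and 1.27 FPKM. With so few fragments no fold is given, and the log2 difference of 1.02 ± 0.31 depends on the pseudocount. Its exons overlap those of Cryab, the lens and stress protein alpha B-crystallin, on the other strand. Cryab was at 0.502, 0 and 0 FPKM in NMDA + PBS and at 2.49, 0 and 2.47 FPKM in NMDA + SCF. Of 16 lens marker genes tested, 11 were higher with SCF by an unadjusted p of 0.05 or less, and their sum ranged from 27.1 to 345 FPKM in the controls and from 673 to 11937 FPKM with SCF. NMDA + SCF 2 was the lowest SCF library for the lens sum as for Hspb2. Cryba4, Foxe3 and Lctl were listed at 0 in all controls. The part of lens RNA in the level of Hspb2 was not tested.

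In the Hsp40 families, a pair of members serves synaptic vesicles. Dnajc5 (cysteine string protein, chr2:181520485-181555133), which guards proteins of synaptic vesicles, was at 87.9, 80.8 and 64.5 FPKM in NMDA + PBS and at 104, 101 and 98.9 FPKM in NMDA + SCF. The groups did not overlap, and the log2 difference was 0.39 ± 0.18 (adjusted p = 0.536, limma) and 0.21 against NMDA + PBS 1 alone. Dnajc6 (auxilin), which uncoats clathrin vesicles with Hsp70, was at 0.344 ± 0.137 and 0.345 ± 0.125 FPKM. Dnajc17, a nuclear member with an RNA-binding domain, was at 13.0, 11.3 and 14.3 FPKM and at 18.3, 16.3 and 28.0 FPKM, with an unadjusted limma p of 0.0354 and an adjusted p of 0.536. NMDA + SCF 3 was well above the other libraries, and the log2 difference of 0.63 ± 0.24 was 0.61 against NMDA + PBS 1 alone. Dnajb14, anchored in the membrane of the endoplasmic reticulum, was at 48.6, 49.7 and 73.0 FPKM and at 44.8, 43.8 and 39.3 FPKM, with no overlap, an adjusted limma p of 0.557 and a log2 difference of -0.19 against NMDA + PBS 1 alone. Dnaja1 and Dnaja4, Hsp40 partners of the cytosol, overlapped between groups, at 15.6 ± 4.03 and 13.9 ± 2.53 FPKM and at 1.25 ± 0.0294 and 1.05 ± 0.633 FPKM. Only 15.6% of the level of Dnaja1 came from coding transcripts, and its exons overlap those of other genes on both strands.

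Some members parted by transcript list, with NMDA + PBS 1 beside the SCF libraries. In 3 members both list B libraries lay at least 2-fold above all 4 list A libraries, on the log2(FPKM + 1) scale, against 2.29% of all genes, and in 2 members they lay at least 2-fold below, against 0.869%. Dnajc16 (chr4:141760189-141790931), a membrane-bound Hsp40, was at 43.2 and 38.9 FPKM in NMDA + PBS 2 and 3 (1026 and 1031 fragments) and had at most 1 fragment in each of the other 4 libraries. Hspa1l, an Hsp70 of germ cells (chr17:34972703-34979285), was at 6.41 and 7.47 FPKM in these 2 controls and listed at 0 in the rest. Dnajc10 (ERdj5, chr2:80315466-80354043), a disulfide reductase of the endoplasmic reticulum, was at 57.1 and 73.1 FPKM there and between 21.4 and 24.1 FPKM in the rest.

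Hspe1 and Dnajb6 were the 2 members with the opposite order. Dnajb6, an Hsp40 that suppresses aggregation of polyglutamine proteins (chr5:29735688-29818134), was at 15.7 and 24.8 FPKM in the list B libraries and between 56.0 and 65.5 FPKM in the others. Most of the gap came from 1 coding transcript, ENSMUST00000114839, with 3 and 5 fragments in the list B libraries and between 188 and 254 in the list A libraries. Of these 5 members, Dnajc16, Hspa1l, Dnajc10 and Dnajb6 are among the 10 with an unadjusted p of at most 0.05. Without NMDA + PBS 1 every control is a list B library. All 5 members then had an adjusted limma p of at most 0.05, and so had 909 of 24953 genes in all (3.64%). Against NMDA + PBS 1 alone the log2 differences of the 5 members lay between -0.32 and 0.075. The 5 members were picked by the distance between the lists, so both outcomes were largely set by that choice and are no further result.

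**Figure D4:**
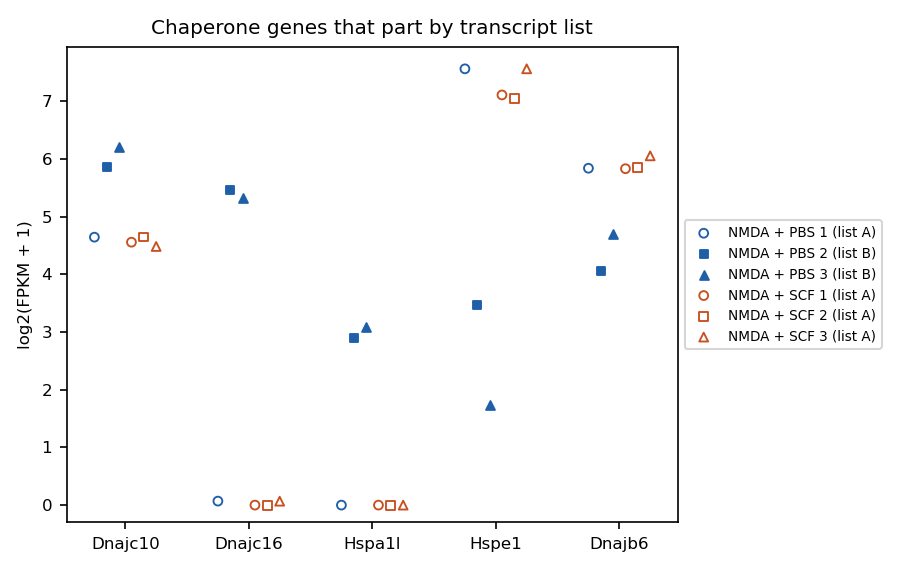
Level of the 5 members whose list B libraries (filled) lie at least 2-fold above or below all list A libraries (open), as log2(FPKM + 1), 1 point per library. For Dnajc10, Dnajc16 and Hspa1l the filled points lie above and for Hspe1 and Dnajb6 below, and NMDA + PBS 1 lies beside the SCF libraries in every case.

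The pseudogenes were low or uneven. Hspe1-ps5 was at 1.98, 0 and 3.03 FPKM in NMDA + PBS (2, 0 and 4 fragments) and listed at 0 with SCF, with an unadjusted limma p of 0.0432 and an adjusted p of 0.536. Hspd1-ps3 and Dnajc19-ps reached 39.3 and 59.3 FPKM in NMDA + SCF 3, above every other library. Reads of these copies and of their parent genes may have been divided between them.

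A further 81 genes of the chaperone network were listed. They hold co-chaperones, heat shock factors, the CCT chaperonin and prefoldin, mitochondrial proteases and alpha crystallins. They also hold endoplasmic reticulum folding enzymes and genes of the stress response of that compartment, such as Atf4 and Xbp1. Of these 81 genes, 72 were tested and 0 had an adjusted limma p of at most 0.05. At an unadjusted p of at most 0.05, 6 were higher with SCF and 4 lower, against 4.33% and 4.90% of all genes, and the median log2 difference was 0.12, against -0.0058 over all genes. Cryaa, the lens chaperone alpha A-crystallin, had the smallest p among those higher, at 0, 0 and 2.15 FPKM in NMDA + PBS and 81.0, 0.866 and 101 FPKM in NMDA + SCF. It was followed by Pdia4, a protein disulfide isomerase, and Pfdn1, a prefoldin subunit. Pdia4 was at 140 FPKM in NMDA + PBS 1, listed at 0 in both list B libraries and between 149 and 153 FPKM with SCF, and Pfdn1 was at 293, 3.27 and 1.67 FPKM and between 237 and 260 FPKM. Among those lower, Cdc37l1, a co-chaperone of Hsp90, was at 9.39, 10.9 and 18.2 FPKM and at 7.04, 6.76 and 7.07 FPKM, with no overlap. Tomm70a and Yme1l1, of the mitochondrial import receptor and a protease of the inner membrane, were high in the list B libraries alone. Stip1, which links Hsp70 with Hsp90 and was named after its values were seen, was at 417, 267 and 191 FPKM and at 423, 451 and 496 FPKM, the same order of controls as Hsp90ab1.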

How the data were processed

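Retinal mRNA was compared between 3 libraries of each group. The authors deposited FPKM values per transcript for each library and a table of sequencing totals, from which clean reads were taken and 6 columns were not used. The aligner and counter are not given in the sources used here. The submitters' notes name mm9, but 98.155% of the 63345 transcripts found in GENCODE M21 (GRCm38) had its positions, so GRCm38 is used.

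Gene values were sums of FPKM over the 46933 Ensembl transcripts found in all 6 files (7529 were in list A alone and 8966 in list B alone). Assembled transcripts without a gene name, with between 8.85 and 11.4% of FPKM, were left out. Value times transcript length was divided by a step fitted in each library. The result was within 0.05 of a whole number, or within the rounding of the printed value, for between 98.4 and 98.5% of values. This gave fragments, between 2826685 and 3742787 per library. Counting floors were 3 fragments and cover counting error only.

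Genes above 0 in a library were tested with limma 3.58.1 in R 4.3.3 on log2(FPKM + 1), a scale that understates the change of low genes, with a variance trend and condition only. p-values were adjusted over all genes by Benjamini-Hochberg. The fit was also run on simulated data that lacked the split of the controls by transcript list. That run therefore cannot show how the fit behaves with this split. Members and gene lists were chosen with earlier results of these data known. Named genes were the 3 most abundant of the large families, all Hsp90, Hspd1, Hspe1, Hsph1 and detected Hspb genes, fixed stress, endoplasmic reticulum and synaptic members, and the 5 of smallest p in each direction past an unadjusted p of 0.05. Protein sequences were not analysed here. Scaling, filter, pseudocount, transcript set, model, replicate block and each library were varied.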

Additional observations from a re-analysis of the deposited data

How the results depend on the processing

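The replicate numbers were not used as pairs in the main fit. Deviations of same-numbered libraries from their group means correlated at -0.04, -0.04 and -0.06. These values cannot exclude a pairing, because the controls come in both transcript lists and the SCF libraries in list A alone. With a replicate block, 4 members were higher and 5 lower at an unadjusted limma p of at most 0.05, and 0 were called. Over all genes the shares were 2.85% higher and 4.52% lower. The count of members higher at that threshold was 5 as reported, 3 under upper quartile and under median of ratios scaling (3.06 and 2.99% of all genes), and 12 of 73 in a voom fit on recovered fragments (5.38% of all genes), in which 2 genes in all and 0 members had an adjusted p of at most 0.05. The count of members lower was 5 as reported, and 2 with a filter of at least 1 FPKM in 3 libraries (4.78% of all genes) and 2 with no variance trend (4.66%). Leaving out each library in turn gave 1 to 12 members higher and 0 to 6 lower, with 0 to 5 members called and 0 to 909 genes called. Among all genes, 1.96 to 7.83% were higher and 2.47 to 9.53% lower in these runs. The 5 members and the 909 genes arose without NMDA + PBS 1, when 7.83% of all genes were higher and 9.53% lower at the unadjusted threshold. In these fits, the stricter adjusted p and fold limit of the study's methods call none where 0 genes pass an adjusted p of 0.05. The paper itself reports genes raised and genes lowered with SCF at its limits, from a test that it does not name. Other scalings moved the median of all genes by less than 0.04 in log2.

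With all listed transcripts the log2 difference of the Dnajc sum was -0.20 and of the Hsph sum 0.58. Against NMDA + PBS 1 alone, an alternative added after the data were seen, the log2 differences of the sums were 0.12 for Hspa, 0.057 for Hsp90, 0.080 for Hspb, 0.14 for Hspd, -0.32 for Hspe, 0.43 for Hsph, -0.059 for Dnaja, 0.049 for Dnajb and 0.18 for Dnajc.

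Of 531 values of 36 named members under an alternative, 479 kept their direction and their side of the threshold, 47 in 16 members turned direction, and 5 were called, all without NMDA + PBS 1. The cause was not tested. Under upper quartile scaling the log2 difference turned to -0.028 for Dnajc3, -0.022 for Dnajc6, -0.018 for Hspa1b and -0.0031 for Hspb7, and under median of ratios to -0.042, -0.023, -0.031 and -0.0090. With a pseudocount of 0.1 it was -0.062 for Dnajb11 and -0.059 for Hspb7, with all listed transcripts -1.48 for Dnajb11 and -0.20 for Dnajc6, and with voom -0.14 for Dnajb11, -0.18 for Hsp90aa1 and -0.091 for Hspb7. Against NMDA + PBS 1 alone it was -0.069 for Dnaja2, 0.28 for Dnaja1, -0.10 for Dnajc3, -0.16 for Dnajc6, -0.084 for Hspa4l, 0.11 for Hspb8, 0.14 for Hspb11 and -0.32 for Hspe1. Leaving out each library gave values from -0.036 to 0.43 for Hsp90aa1, -0.060 to 0.15 for Hspa1b, -0.20 to 0.070 for Hspb3, -0.11 to 0.12 for Hspb7, -0.13 to 0.18 for Hsph1, -0.074 to 0.083 for Dnajc6, -0.10 to 0.10 for Hspb8, -0.35 to 0.014 for Dnaja1, -0.12 to 0.21 for Dnajb11, -0.038 to 0.10 for Dnajc3, -0.12 to 0.57 for Hspb1 and -0.41 to 0.038 for Dnaja4.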
